A study of Homo sapiens with 6 samples.

Results

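The HOX genes of the HOXA, HOXB, HOXC and HOXD clusters were taken from the deposited gene table as the rows whose gene name is HOX, a cluster letter from A to D and a number. The rule found 33 of the 30676 genes of the table, with 11 in HOXA, 9 in HOXB, 9 in HOXC and 4 in HOXD. HOXB1, HOXD1, HOXD3, HOXD4, HOXD12 and HOXD13 were not analysed here. RNA came from cells labelled as wild-type HCT116, an established human colorectal cancer line, in 3 libraries with GIA at 10 µM and 3 libraries with DMSO at 0.1%. GIA is named in the study as an alkaloid derived from the isoflavonoid genistein. All 6 cultures were kept under hypoxia, at 1% oxygen, for 24 hours, and the labels give a DMSO content for the control libraries only. The labels do not tell separate cultures from repeated libraries, so the spread within a group, and each p-value below, may reflect technical variation.

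HOX genes encode homeodomain transcription factors and lie in clusters in which the order of genes along the chromosome matches the order in which they are switched on from head to tail in the embryo. Genes with the same number in different clusters are paralogues; low numbers act in the hindbrain and neck, and high numbers in the lumbar, sacral and tail regions, the distal limb and the hindgut. Adult cells tend to keep the HOX domain of the body region they came from, held silent by Polycomb proteins and active by MLL-type histone methyltransferases. Levels are given in FPKM, a number of fragments corrected for gene length and library size, so that genes of different length can be set side by side.

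Libraries held 55725249 to 67835059 estimated counts, of which the 33 HOX genes took 22111 to 27994. GIA library 2 stood apart when pairs of libraries were compared over 11495 genes with higher counts, each estimated count divided by 4. Its chi-square per degree of freedom was 6.33 to 10.4 against each other library, where all other pairs lay between 2.51 and 4.47. The labelled cell type was set against markers of colorectal epithelium. EPCAM, the epithelial adhesion molecule, was at 0.335, 0.294 and 0.119 FPKM with GIA and at 0.258, 0.305 and 0.201 with DMSO. CDH1, E-cadherin, averaged 0.0362 FPKM and VIL1, villin of the intestinal brush border, was at 0 in 4 of the 6 libraries. Some other epithelial markers were high: the keratins KRT18, KRT8 and KRT19 averaged 255, 146 and 27.7 FPKM and the claudin CLDN7 11.6 FPKM. The claudins CLDN4 and CLDN3 were low, at a mean of 0.917 and 0.328 FPKM. Of the fibroblast list, LUM (lumican) averaged 173 FPKM, DCN 12.8, PDGFRB 4.22 and COL1A1 2.52. THY1 averaged 0.0855 FPKM, and COL3A1 was at 0 in all libraries but GIA library 2. The 9 epithelial genes with a row summed to 398 to 464 FPKM with GIA and 447 to 452 with DMSO, and the 6 fibroblast genes to 175 to 222 with GIA and 178 to 195 with DMSO. The leukocyte list summed to 17.0 to 23.0 FPKM with GIA and 17.9 to 24.6 with DMSO, nearly all of it CD68, while the endothelial list summed to at most 0.123. EPCAM, CDH1, VIL1, CLDN3, CLDN4 and the expressed fibroblast genes go against the label, while the keratins and CLDN7 do not. The domains below are therefore given for libraries labelled HCT116. What these markers mean for the HOX levels was not tested.

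Of the 33 HOX genes, 24 had a mean of at least 0.5 FPKM over the 6 libraries, the level above which genes were tested, and 6 had at least 5 FPKM. The 24 were 7 of 11 HOXA genes, 8 of 9 HOXB genes, 7 of 9 HOXC genes and 2 of 4 HOXD genes. HOXD11, at 0.660 FPKM, lay just inside the limit and HOXA4, at 0.495 FPKM, just outside it. All HOX genes together summed to 131.0 ± 2.51 FPKM with GIA and 131.6 ± 2.35 with DMSO (SD, n = 3 each). HOXC held 37.4 to 39.1% of that sum per library, HOXA 37.2 to 38.2%, HOXB 20.5 to 21.6% and HOXD 2.42 to 2.95%. In bulk RNA, fewer cells with a transcript and less of it per cell cannot be told apart.

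**Figure D1:**
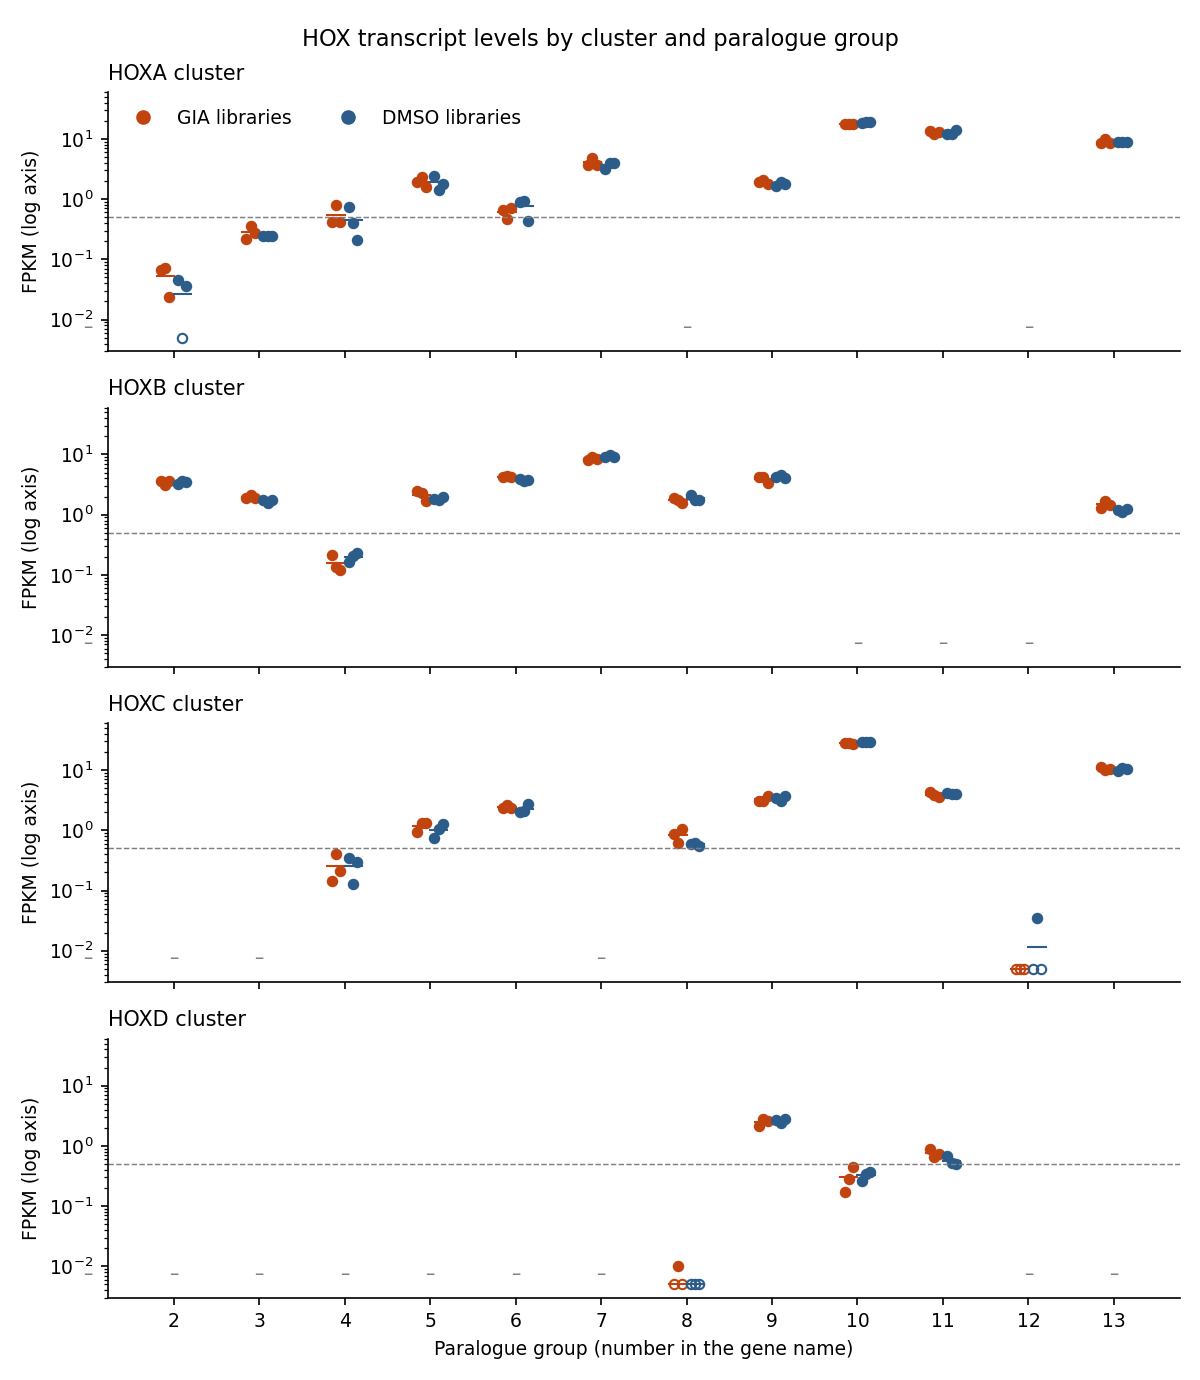
Level of each HOX gene in FPKM (log axis) by cluster (panels) and paralogue group (x axis); each point is a library, GIA left in orange and DMSO right in blue, short bars are group means, the dashed line marks 0.5 FPKM, open points lie under 0.005 FPKM (0 included) and a grey dash marks a position with no gene shown. The highest points are HOXC10 at 27.4 to 29.2 FPKM and HOXA10 at 17.3 to 18.9 FPKM, while HOXC12 and HOXD8 lie at the floor beside expressed neighbours.

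The HOX sum was dominated by the posterior genes. Paralogue groups 9 to 13 summed to 96.1 ± 1.59 FPKM with GIA and 97.9 ± 1.87 with DMSO, which was 72.1 to 74.5% of all HOX signal per library. Groups 4 to 8 held 21.1 to 23.2% and groups 1 to 3 held 4.27 to 4.87%. By single group, the paralogues numbered 10 summed to 46.9 FPKM, of which HOXC10 gave 60.7%, those numbered 13 to 20.7 FPKM and those numbered 11 to 17.5 FPKM. Group 7 came next at 12.8 FPKM, of which HOXB7 gave 69.6%, and group 9 at 11.9 FPKM was above 0.5 FPKM in all 4 clusters. Group 4 had no member above the limit and summed to 0.928 FPKM.

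The clusters differed in where along the paralogue numbers their signal lay. In HOXA, groups 9 to 13 summed to 41.5 ± 0.454 FPKM with GIA and 42.1 ± 1.35 with DMSO, against 7.15 ± 1.06 with GIA and 6.82 ± 0.358 with DMSO for groups 4 to 8. In HOXC the same contrast was 45.7 ± 1.30 FPKM with GIA and 46.8 ± 0.817 with DMSO, against 4.72 ± 0.383 with GIA and 4.17 ± 0.648 with DMSO. HOXB was weighted the other way, with 5.44 ± 0.513 FPKM with GIA and 5.51 ± 0.137 with DMSO in groups 9 to 13, and 16.8 ± 0.764 with GIA and 17.0 ± 0.112 with DMSO in groups 4 to 8. Among the genes analysed, HOXB was also the cluster with groups 1 to 3 above the limit, at 5.42 ± 0.108 FPKM with GIA and 5.08 ± 0.134 with DMSO. The GIA and DMSO ranges of that sum did not overlap, and sums were not tested. It holds HOXB2, whose groups overlapped, and HOXB3, whose groups did not, as for 11.2% of all genes tested.

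The HOXA cluster lies on chromosome 7 (GRCh38, minus strand) and was low at its low-numbered end and high at its HOXA13 end. HOXA10, which patterns the uterus and the lumbar region in mice, spans chr7:27170592-27174320 and had 17.8, 17.3 and 17.8 FPKM with GIA and 18.3, 18.8 and 18.9 FPKM with DMSO. HOXA11, a gene of the forearm and the uterus in mice, at chr7:27181157-27185232, had 13.6, 12.1 and 12.9 FPKM with GIA and 12.2, 12.2 and 14.0 FPKM with DMSO. HOXA13, which acts in the hand, foot and hindgut, at chr7:27193503-27200091, had 8.56, 10.0 and 8.52 FPKM with GIA and 8.96, 8.84 and 8.96 FPKM with DMSO. The 3 genes kept the order HOXA10, HOXA11, HOXA13 in each library, and HOXA10 was the one of them whose groups did not overlap. HOXA7 had 3.65, 4.80 and 3.72 FPKM with GIA and 3.18, 3.97 and 4.05 with DMSO. HOXA5 had 1.93, 2.31 and 1.58 FPKM with GIA and 2.42, 1.43 and 1.81 with DMSO. HOXA9, a gene of blood progenitors, had 1.95, 2.05 and 1.79 FPKM with GIA and 1.67, 1.89 and 1.80 with DMSO. The groups of these 3 genes overlapped, and all 3 were lower than HOXA10 in each library. HOXA6 was the least regular of the tested HOX genes, with 0.647, 0.472 and 0.721 FPKM with GIA and 0.887, 0.936 and 0.438 with DMSO, a coefficient of variation of 30.2% over the 6 libraries. HOXA2, HOXA3 and HOXA4 ranged from 0 to 0.791 FPKM over all libraries.

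The sequences just upstream of the genes at the ends of this range are shown because CG dinucleotides, which can be methylated, are dense at many developmental promoters. The RefSeq promoter table (GRCh38.p14) had an entry for 14 of the 33 genes. The 250 bases before the start are given 5′ to 3′ on the strand of the gene, with each CG in capitals, for the 3 HOXA genes above 5 FPKM and for HOXA2 and HOXD8, which were near 0.
HOXA10, chr7:27174321-27174570, minus strand: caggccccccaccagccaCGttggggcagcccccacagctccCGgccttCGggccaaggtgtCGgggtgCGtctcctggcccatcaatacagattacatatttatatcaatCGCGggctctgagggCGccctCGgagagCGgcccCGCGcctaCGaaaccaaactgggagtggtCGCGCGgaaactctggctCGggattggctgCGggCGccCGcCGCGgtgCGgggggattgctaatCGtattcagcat
HOXA11, chr7:27185233-27185482, minus strand: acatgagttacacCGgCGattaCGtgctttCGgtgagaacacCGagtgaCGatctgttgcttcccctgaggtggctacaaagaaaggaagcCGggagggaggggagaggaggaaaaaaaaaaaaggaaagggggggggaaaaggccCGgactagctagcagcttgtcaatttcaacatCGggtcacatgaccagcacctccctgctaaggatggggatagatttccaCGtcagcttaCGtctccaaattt
HOXA13, chr7:27200092-27200341, minus strand: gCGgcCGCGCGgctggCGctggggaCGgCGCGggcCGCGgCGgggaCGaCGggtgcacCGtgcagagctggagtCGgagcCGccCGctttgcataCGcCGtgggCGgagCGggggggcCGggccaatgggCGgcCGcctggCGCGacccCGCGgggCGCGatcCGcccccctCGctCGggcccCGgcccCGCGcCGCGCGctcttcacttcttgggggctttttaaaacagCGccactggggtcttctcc
HOXA2, chr7:27102684-27102933, minus strand: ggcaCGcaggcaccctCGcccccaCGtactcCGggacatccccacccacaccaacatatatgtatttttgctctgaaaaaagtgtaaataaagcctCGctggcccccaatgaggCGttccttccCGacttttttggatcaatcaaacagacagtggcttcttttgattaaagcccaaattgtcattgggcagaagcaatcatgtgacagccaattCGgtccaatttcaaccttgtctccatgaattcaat
HOXD8, chr2:176129455-176129704, plus strand: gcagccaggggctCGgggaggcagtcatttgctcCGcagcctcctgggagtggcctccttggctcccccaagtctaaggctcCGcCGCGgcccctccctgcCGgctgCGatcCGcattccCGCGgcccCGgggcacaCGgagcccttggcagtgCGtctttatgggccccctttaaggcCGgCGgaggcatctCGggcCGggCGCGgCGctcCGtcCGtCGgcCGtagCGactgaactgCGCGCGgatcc

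HOXA13 had 40 CG dinucleotides in this window, HOXD8 28, HOXA10 24, HOXA11 11 and HOXA2 8, where the median over 35114 promoters of the table was 11. Among these 5 windows the order by CG number was not the order by level: HOXD8, near 0 in all libraries, had more than HOXA10 and HOXA11. A second HOXA10 promoter, not printed, had 19. A relation of CG number to level was not tested. Each window was also searched on both strands for 4 motifs. The core promoter motif TATAAA is held by 10.7% of all promoters. The homeodomain core TAATTA is held by 4.35%, the caudal core TTTATG by 9.64% and the ETS core CCGGAA by 14.5%. Of the 5 windows printed, HOXA10 held TATAAA on the strand opposite to the gene and HOXD8 held TTTATG on its own strand. No other match was found in them.

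The HOXC cluster, on the plus strand of chromosome 12, held the highest HOX gene. HOXC10, active in the lumbar spinal cord and hindlimb, at chr12:53985065-53990279, had 28.6, 28.0 and 27.4 FPKM with GIA and 28.7, 29.2 and 29.1 FPKM with DMSO. It lay above 89.0% of the 13721 genes tested and varied by a coefficient of variation of 2.43% over the 6 libraries. HOXC13, a regulator of hair and nail keratins, at chr12:53938831-53946544, had 11.3, 9.84 and 10.3 FPKM with GIA and 9.56, 11.0 and 10.3 FPKM with DMSO. Between these genes on the chromosome, HOXC12 was at 0 in all libraries but DMSO library 2, where it had 0.0349 FPKM. HOXC11, the other gene between them, had 4.24, 3.92 and 3.62 FPKM with GIA and 4.20, 4.07 and 4.08 with DMSO. The posterior HOXC domain thus had a gene at or near 0 flanked by expressed ones. HOXC9 had 3.10, 3.10 and 3.68 FPKM with GIA and 3.42, 3.09 and 3.66 with DMSO. HOXC6 had 2.33, 2.62 and 2.34 FPKM with GIA and 1.99, 2.11 and 2.78 with DMSO. HOXC5 had 0.923, 1.30 and 1.34 FPKM with GIA and 0.744, 1.07 and 1.28 with DMSO. Groups overlapped for each of these. HOXC8, a gene of the lower neck and forelimb motor neurons in mice, had 0.879, 0.619 and 1.04 FPKM with GIA and 0.589, 0.623 and 0.544 with DMSO, so that GIA libraries 1 and 3 lay above all DMSO libraries and GIA library 2 did not. HOXC4 ranged from 0.129 to 0.405 FPKM.

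The HOXB cluster, on the minus strand of chromosome 17, was expressed along nearly its whole analysed length at a few FPKM. HOXB7, often high in epithelial tumours, had 8.13, 8.95 and 8.41 FPKM with GIA and 9.01, 9.72 and 9.23 with DMSO. HOXB9 had 4.27, 4.20 and 3.42 FPKM with GIA and 4.30, 4.53 and 4.14 with DMSO. HOXB6 had 4.20, 4.36 and 4.21 FPKM with GIA and 3.84, 3.68 and 3.71 with DMSO. All GIA libraries were below all DMSO libraries for HOXB7 and above them for HOXB6, and the groups overlapped for HOXB9. HOXB2, a hindbrain gene, had 3.56, 3.14 and 3.64 FPKM with GIA and 3.20, 3.58 and 3.42 with DMSO. HOXB5 had 2.43, 2.29 and 1.70 FPKM with GIA and 1.79, 1.76 and 1.99 with DMSO. HOXB8 had 1.86, 1.78 and 1.54 FPKM with GIA and 2.11, 1.74 and 1.76 with DMSO. The groups of these overlapped. HOXB3, which acts in the hindbrain, had 1.87, 2.16 and 1.88 FPKM with GIA and 1.73, 1.58 and 1.74 with DMSO. HOXB13, a marker of prostate and distal colon, had 1.30, 1.68 and 1.46 FPKM with GIA and 1.21, 1.11 and 1.23 with DMSO. For HOXB3 and HOXB13 all GIA libraries were above all DMSO libraries, and GIA library 2 was the highest. HOXB4, a gene of blood stem cells, was the low member of the cluster at 0.121 to 0.231 FPKM.

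The 4 HOXD genes were low. HOXD9 had 2.14, 2.76 and 2.60 FPKM with GIA and 2.69, 2.38 and 2.75 with DMSO. HOXD11, a forearm and kidney gene in mice, had 0.877, 0.657 and 0.731 FPKM with GIA and 0.671, 0.524 and 0.501 with DMSO. HOXD10 had 0.172, 0.283 and 0.448 FPKM with GIA and 0.265, 0.339 and 0.374 with DMSO, and HOXD8 was at 0 in all libraries but GIA library 2, where it had 0.0102 FPKM. HOXD9 was therefore the one HOXD gene above 1 FPKM in each library, beside HOXD8 at the floor.

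Ordered by mean FPKM, HOXC10 (28.5), HOXA10 (18.1), HOXA11 (12.8) and HOXC13 (10.4) were each apart from the next in their ranges over the 6 libraries, down to HOXC13. HOXC13, HOXA13 (8.97) and HOXB7 (8.91) overlapped with their neighbours. A gap followed, then HOXB9 (4.14), HOXC11, HOXB6, HOXA7, HOXB2 and HOXC9 (3.34), which overlapped in turn, and after another gap the rest from HOXD9 (2.55) downward. In all, 26 of 32 neighbouring pairs overlapped, and ranges were apart for HOXC10, HOXA10, HOXA11, HOXB7, HOXC9 and HOXB4, each over the next gene.

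Gene models overlap in the clusters, and the division of reads among them is the estimate of the authors' software. GENCODE 29 held all 33 gene identifiers, but only 10 with the same start and end as deposited. The shares given here are thus of GENCODE 29 exons, and those of the deposited models may differ. HOXC5 shared 59.9% of its exonic bases with other models on the same strand, HOXA4 31.0%, HOXD11 21.4%, HOXC4 17.8% and HOXB4 17.1%. HOXD10 shared 16.8%, HOXB6 16.6%, HOXA9 15.9% and HOXC6 15.7%, and every other HOX gene less. HOXB6 shared 433 bases with HOXB3, and HOXD10 and HOXD11 shared 452 with each other. These levels, HOXB3 and HOXB6 included, are thus uncertain, but the share of bases does not give the size of that uncertainty. The model sharing bases with HOXA4 on the same strand averaged 0.00309 FPKM, whereas HOXC6, which shares bases with HOXC4, averaged 2.36 FPKM. These averages also depend on how reads were divided, which was not tested. On the opposite strand, HOXA7 shared 62.5% of its exonic bases, HOXA6 39.3% and HOXA11 31.1%, the last with HOXA11-AS. The libraries are labelled strand-specific, but whether counting used the strand is not stated, so sense and antisense levels there cannot be told apart with certainty.

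Between GIA and DMSO no HOX gene passed the test. Of the 24 tested, 0 were called by edgeR's quasi-likelihood test at a Benjamini-Hochberg adjusted p under 0.05, as were 0 of all 13721 genes (0%), and the smallest adjusted p of a HOX gene was 0.875. DESeq2 and limma also called 0 HOX genes. At an unadjusted p under 0.05, edgeR gave 1 HOX gene, HOXB3, which is 4.17% of the 24 where 4.59% of all genes tested passed, 2.65% with the higher level in GIA. DESeq2 gave 1 of the 24 HOX genes, where 4.75% of all genes passed. For limma it was 4 of the 24, a larger share than the 4.88% of all genes. Libraries of GIA and DMSO did not overlap in FPKM for 6 of 24 HOX genes (25%), against 11.2% of all genes tested. HOXB3, HOXB6 and HOXB13 lay above, as did 5.63% of all genes, and HOXA10, HOXB7 and HOXC10 below, as did 5.6%. Without GIA library 2 the count was 9 of 24, with HOXC8 and HOXD11 above and HOXA13 below added, against 20.9% of all genes. The median log2 fold change, GIA over DMSO, was 0.021 over the 24 HOX genes, 15 of them positive, and 0.00038 over all genes tested.

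**Figure D2:**
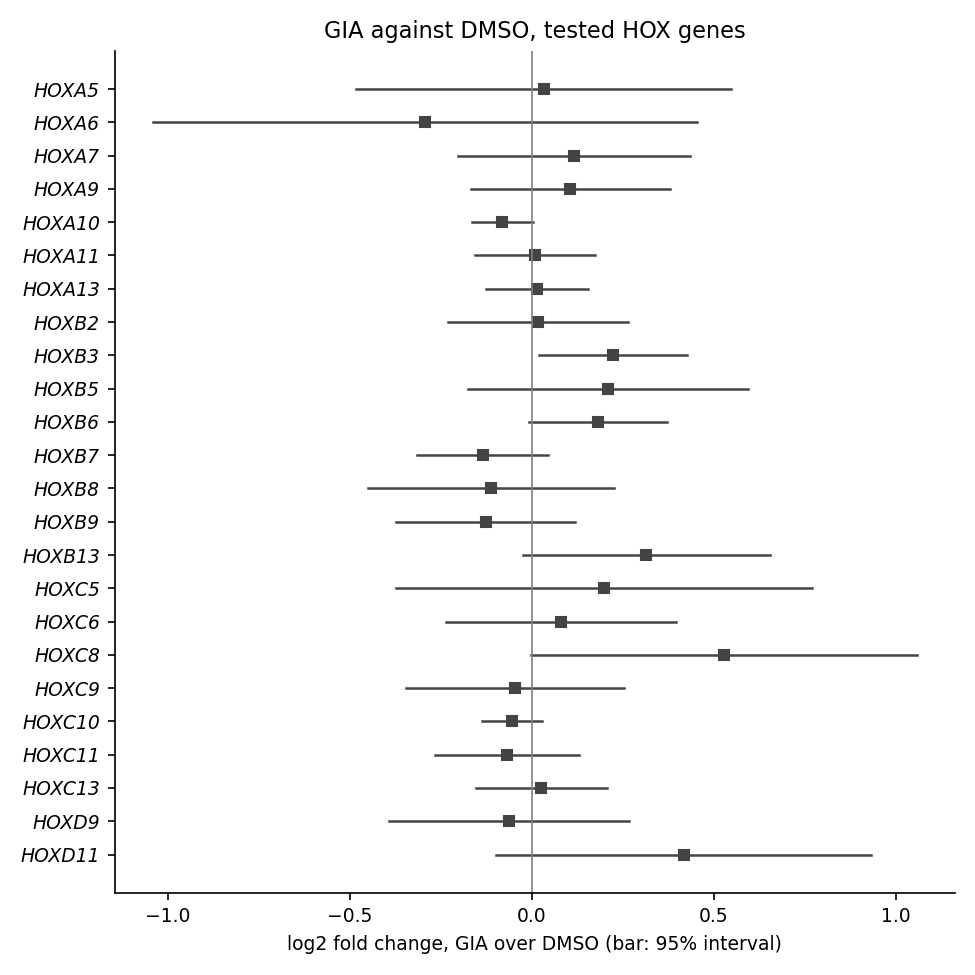
Log2 fold change of the 24 tested HOX genes, GIA over DMSO, with its 95% interval from edgeR (x axis), by gene (y axis). HOXB3 alone has an interval that leaves out 0 (0.020 to 0.43), and it did not pass after adjustment.

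The genes whose groups did not overlap had small differences. HOXB3 averaged 1.97 ± 0.168 FPKM with GIA and 1.68 ± 0.0931 with DMSO (SD, n = 3 each), a log2 fold change of 0.22 (SE 0.090; edgeR unadjusted p = 0.0346, adjusted p = 0.875). Without GIA library 2 the HOXB3 log2 fold change was 0.16. HOXB6 averaged 4.26 ± 0.0886 FPKM with GIA and 3.74 ± 0.0854 with DMSO, a log2 fold change of 0.18 (SE 0.084). HOXB13 averaged 1.48 ± 0.189 FPKM with GIA and 1.19 ± 0.0648 with DMSO, a log2 fold change of 0.31 (SE 0.15) that was 0.22 without GIA library 2. These 3 lie in HOXB, and HOXB3 and HOXB6 share exonic bases. HOXA10 averaged 17.6 ± 0.245 FPKM with GIA and 18.6 ± 0.311 with DMSO, a log2 fold change of -0.082 (SE 0.037). HOXB7 averaged 8.50 ± 0.419 FPKM with GIA and 9.32 ± 0.362 with DMSO, a log2 fold change of -0.14 (SE 0.080). HOXC10 averaged 28.0 ± 0.572 FPKM with GIA and 29.0 ± 0.289 with DMSO, a log2 fold change of -0.054 (SE 0.037). The last 3 are among the 6 HOX genes above 5 FPKM. The values of the overlapping genes with the largest fold changes were 0.53 (SE 0.23) for HOXC8, 0.42 (SE 0.23) for HOXD11 and -0.29 (SE 0.33) for HOXA6, all with a mean under 1 FPKM. The HOXA6 value rested on single libraries: it was -0.13 when GIA library 2 was left out. Leaving out DMSO library 1, 2 or 3 gave -0.16, -0.11 or -0.57.

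The intervals set limits on what the 3 libraries per group could show. The 95% interval of the fold change lay within 2-fold either way for 22 of 24 HOX genes (91.7%), against 92.9% of all genes tested, and within 1.5-fold for 18 of 24 (75.0%), against 83.0%. HOXC8 and HOXA6 were the HOX genes whose interval reached past 2-fold. The abundant genes were the best bounded, with HOXA10 between -0.17 and 0.0018 on the log2 scale.

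**Figure D3:**
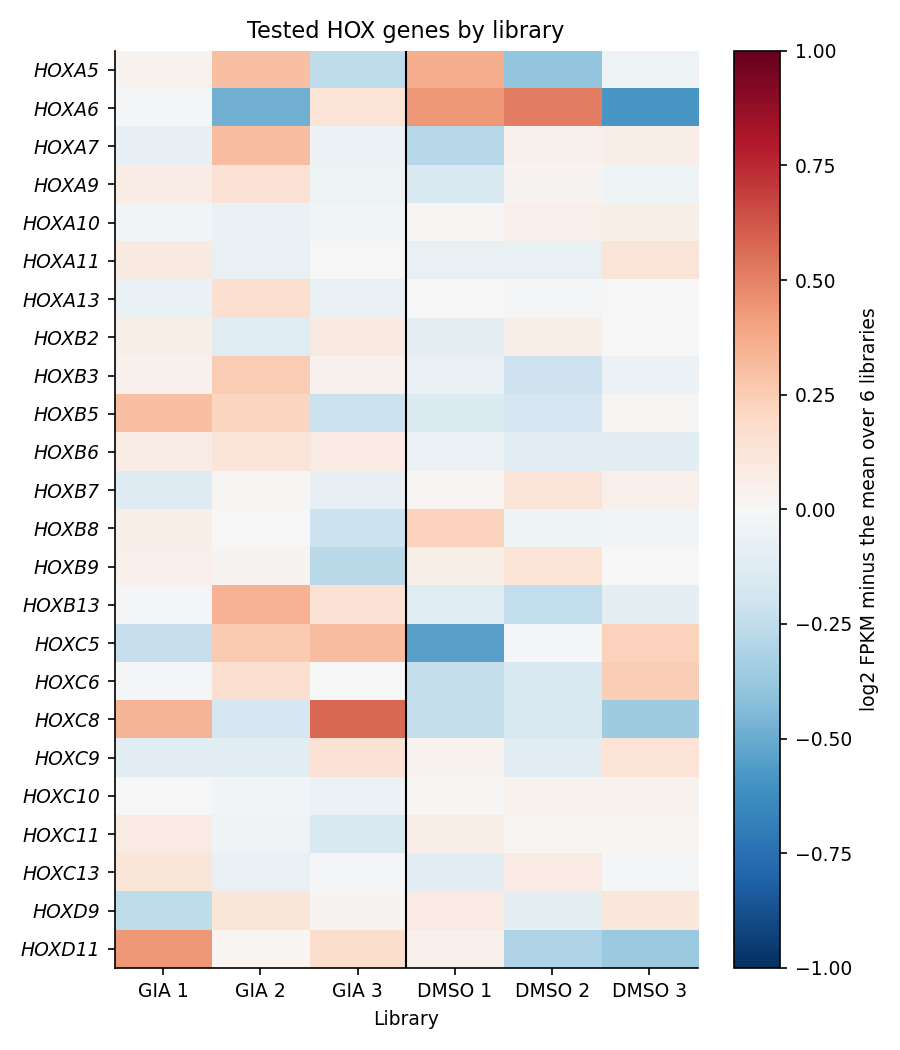
Heat map of the 24 tested HOX genes (rows) in the 6 libraries (columns, GIA left and DMSO right), as log2 FPKM minus the mean of the gene over the 6 libraries. The largest departures are in low genes, such as HOXA6 (-0.58 in DMSO library 3) and HOXC8 (0.58 in GIA library 3), and HOXA10 stays between -0.063 and 0.058.

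Other transcripts of the clusters, most of them antisense or noncoding, were also present. Of 43 such models with a row, 15 had a mean of at least 0.5 FPKM, with 7 of 23 in HOXA, 2 of 8 in HOXB, 6 of 11 in HOXC and 0 of 1 in HOXD. HOTAIRM1, on the strand opposite to HOXA2 and next to it, was the highest, with 10.8, 10.3 and 9.71 FPKM with GIA and 9.75, 9.04 and 9.72 with DMSO. It was far above its neighbour HOXA2, which averaged 0.0402 FPKM. HOXA11-AS had 6.92, 8.45 and 7.10 FPKM with GIA and 7.29, 6.71 and 6.56 with DMSO. HOTTIP, a noncoding RNA at the HOXA13 end known to bind an MLL-complex subunit, averaged 2.43 ± 0.267 FPKM with GIA and 2.44 ± 0.216 with DMSO. HOXC13-AS had 2.92, 2.35 and 2.54 FPKM with GIA and 2.96, 2.23 and 3.22 with DMSO. The groups of all 4 overlapped.

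**Figure D4:**
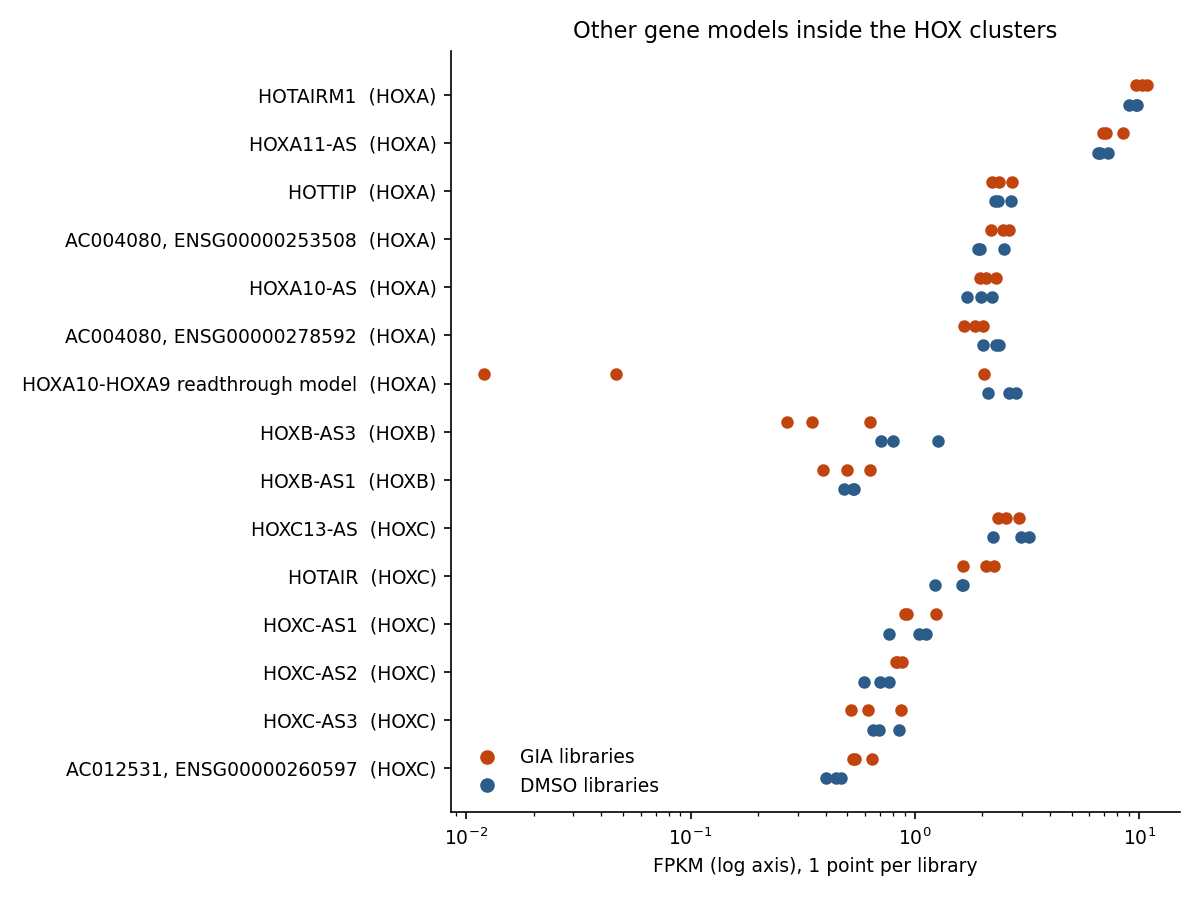
Level in FPKM (x axis, log) of the 15 other gene models of the HOX clusters with a mean of at least 0.5 FPKM; each point is a library, GIA in orange above DMSO in blue. HOTAIRM1 and HOXA11-AS are the highest, and the HOXA10-HOXA9 readthrough model (ENSG00000257184) spans the widest range, 0.0120 to 2.83 FPKM.

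Of these 15 models 0 passed edgeR's test, 2 had an unadjusted p under 0.05, where 4.59% of all genes did, and 5 had groups that did not overlap, where 11.2% of all genes did. Their median log2 fold change was 0.061. HOXB-AS3, antisense along HOXB3 to HOXB6, had 0.631, 0.349 and 0.269 FPKM with GIA and 0.800, 0.710 and 1.27 with DMSO, a log2 fold change of -1.15 (SE 0.36; edgeR unadjusted p = 0.0107, adjusted p = 0.875). HOTAIR, antisense in HOXC and known to bind Polycomb proteins, had 1.63, 2.08 and 2.27 FPKM with GIA and 1.64, 1.23 and 1.62 with DMSO, a log2 fold change of 0.41 (SE 0.18; edgeR unadjusted p = 0.0476, adjusted p = 0.875). All GIA libraries were below all DMSO libraries for HOXB-AS3, and GIA library 1 lay among the DMSO libraries for HOTAIR. HOXB6, HOXB3 and HOXB5 share 425, 77 and 73 exonic bases with HOXB-AS3 on the opposite strand. With GIA, HOXB6 and HOXB3 lay above all DMSO libraries and the groups of HOXB5 overlapped.

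The HOXA10-HOXA9 readthrough model (ENSG00000257184, chr7:27163535-27180013, minus strand) stood out by its pattern over libraries. It had 0.0120, 0.0467 and 2.04 FPKM with GIA and 2.83, 2.63 and 2.13 with DMSO, from estimated counts of 1, 3 and 111 with GIA and 132, 126 and 114 with DMSO. GIA libraries 1 and 2 were near 0, and GIA library 3 was close to DMSO library 3. Its log2 fold change was -1.86 (SE 1.04; edgeR adjusted p = 0.875), and all GIA libraries were below all DMSO libraries. Without GIA library 3 it was -6.08 and passed (edgeR adjusted p = 0.0049, against 0.636 to 0.999 under the other alternatives), a fitted value that rests on counts of 1 and 3 and is no bound. The model shares 368 exonic bases with HOXA10 and 397 with HOXA9 on the same strand. HOXA10 and HOXA9 themselves had 17.8 and 1.95 FPKM in GIA library 1, where the readthrough model was at 0.0120, so neither was near 0 there. How reads were assigned among these models was not tested.

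**Figure D5:**
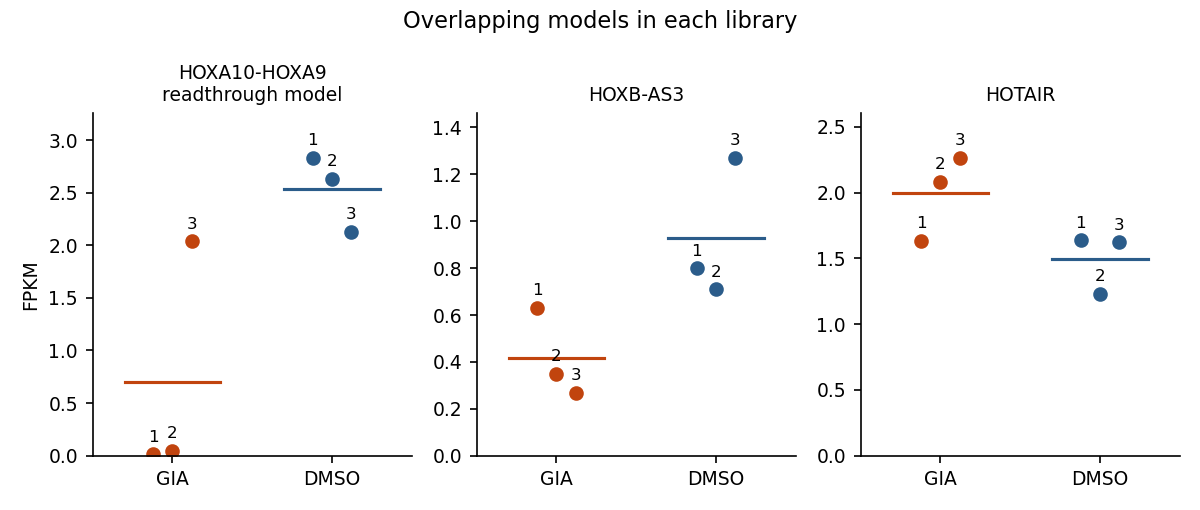
FPKM of the HOXA10-HOXA9 readthrough model, HOXB-AS3 and HOTAIR in each library (points, numbered by replicate; horizontal lines are group means; GIA left, DMSO right; axes start at 0). For the readthrough model GIA replicates 1 and 2 lie near 0 and GIA replicate 3 lies at 2.04 FPKM.

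The clusters also carry microRNA genes, shown because their known targets include HOX genes of the same clusters. Mature sequences are from RefSeq (GRCh38.p14), 5′ to 3′, with the seed (bases 2 to 8) in capitals.
hsa-miR-196a-5p, chr17:48632532-48632553, minus strand and chr12:53991762-53991783, plus strand: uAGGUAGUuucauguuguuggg
hsa-miR-196b-5p, chr7:27169528-27169549, minus strand: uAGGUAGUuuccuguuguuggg
hsa-miR-10a-5p, chr17:48579904-48579926, minus strand: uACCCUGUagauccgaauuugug
The miR-196 sequences share the seed AGGUAGU, and miR-10a-5p has another. The rows of their hairpins (MIR196B 0.0116, MIR196A2 0.0592 and MIR10A 0.00033 FPKM) do not measure the mature microRNAs, which these mRNA libraries are not made to capture.

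The match to the miR-196 seed, ACTACCT, was found in the longest GENCODE 29 3′ UTR of 7 of the 24 tested HOX genes (29.2%), against 7.92% of the 10914 tested genes with a 3′ UTR. HOXA7 held 4 matches, HOXA9 and HOXC8 held 2 each, and HOXA5, HOXB6, HOXB7 and HOXB13 held 1 each. Of the 6 HOX genes above 5 FPKM, HOXB7 thus held a match and HOXC10, HOXA10, HOXA11, HOXA13 and HOXC13 did not. The match to the miR-10a-5p seed, ACAGGGT, was in 1 of the 24 (4.17%), HOXB3, against 14.9% of all. The best pairing to the whole of miR-196a-5p was in the HOXB8 3′ UTR, where 21 of 22 bases pair and the remaining base, in capitals, is a G facing U.
HOXB8 3′ UTR window: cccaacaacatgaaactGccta
The next best HOX window, in HOXA7, pairs at 15 of 22 bases. HOXB8, at 1.54 to 2.11 FPKM, was lower than its neighbours HOXB7 and HOXB9 in each library. A match is a description of the sequence and says nothing of repression here.

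Transcripts for proteins that bind with HOX factors, or that set HOX gene states, were detected and did not pass the test between groups. The TALE homeodomain cofactors, which bind DNA beside HOX proteins, had 8 tested genes, 0 called, with PBX2 (10.3 FPKM) highest and a median log2 fold change of 0.028. Polycomb genes had 22 tested and 0 called, with a median of 0.0056, RBBP7 (33.4 FPKM) being highest. CBX2, a Polycomb chromodomain protein, had 15.0, 13.9 and 14.3 FPKM with GIA and 12.8, 13.2 and 13.8 with DMSO, a log2 fold change of 0.12 (SE 0.045; edgeR unadjusted p = 0.0297, adjusted p = 0.875). The groups of CBX2 did not overlap, nor did those of PHF1, which binds methylated histone H3, with at least 7.29 FPKM with GIA and 6.59 to 7.27 FPKM with DMSO. They are 2 of the 22 Polycomb genes, where 11.2% of all genes tested did not overlap. The COMPASS and MLL list holds histone H3 methyltransferases and their subunits, and also the insulator protein CTCF, the demethylases KDM6A and KDM6B and chromatin-binding partners such as PSIP1. It had 16 genes tested and 0 called, with a median of 0.026, and PSIP1 (25.2 FPKM) and WDR5 (23.2 FPKM), a core COMPASS subunit, were highest.

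Retinoic acid switches on HOX genes in order in embryos, and of the retinoid genes listed 7 were tested and 0 called, with a median log2 fold change of 0.086. RXRB, a retinoid receptor, had 18.0, 18.9 and 18.4 FPKM with GIA and 16.6, 17.3 and 17.0 with DMSO, a log2 fold change of 0.12 (SE 0.038; edgeR unadjusted p = 0.0119, adjusted p = 0.875). CRABP2, which carries retinoic acid in the cell, had 9.49, 14.7 and 10.8 FPKM with GIA and 9.95, 8.47 and 9.59 with DMSO, with GIA library 2 the highest. The groups of RXRB did not overlap, as for 11.2% of all genes tested, and those of CRABP2 did. Of the genes that flank the clusters, 6 were tested and 0 called: HIBADH (55.7 FPKM) was above every HOX gene and CBX5 (19.7 FPKM) above every HOX gene but HOXC10, whereas EVX1 next to HOXA13 averaged 0.0564 FPKM. The caudal and ParaHox genes were not analysed here.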

How the data were processed

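RNA was measured in 6 libraries. The authors deposited a table with an estimated count and an FPKM per gene and library, per the file headers; tools named by the submitters' processing notes, with no role or order, were HISAT2 2.2.1, StringTie 2.1.6, FastQC 0.10.1, DESeq2 1.22.2 and cutadapt, and the builds named were hg38 and GRCh38. Which annotation release was used is not given in the sources. Low deposited estimated counts pile up at 4 (6798 values, against 4183 at 3), so they are not plain read counts; already whole, they were not altered by rounding. FPKM of overlapping models depends on how reads were shared among them.

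The 33 HOX genes and all lists were chosen with earlier results of these data known. The quasi-likelihood test of edgeR 4.0.16 (R 4.3.3, two-sided, TMM scaling) was fitted to the estimated counts of 13721 genes, those averaging 0.5 FPKM or more, with Benjamini-Hochberg adjustment over all of them. It was tested on simulated data. The common biological coefficient of variation was 11.0%. Fold changes are log2, GIA over DMSO. Alternatives were DESeq2 1.42.0, limma 3.58.1 on log2 (FPKM + 0.5) or log2 (FPKM + 1), library totals in place of TMM, no filter, a replicate block and leaving out each library; the count of HOX genes whose groups do not overlap without GIA library 2 was added after seeing the data. Named were all HOX genes, list members at an unadjusted p under 0.05 and the 2 most abundant of each list, and other cluster models at 0.5 FPKM or more; further genes, EVX1, CRABP2 and the cell type markers among them, were chosen after their values were seen. Exons and 3′ UTRs are from GENCODE 29, where 10 of the 33 HOX genes start and end as deposited, and promoters and microRNAs from RefSeq. Some genes that this rule names are not reported here.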

Additional observations from a re-analysis of the deposited data

How the results depend on the processing

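No HOX gene was called in any alternative tried, and 24 HOX genes stood above 0.5 FPKM, 24 to 25 when a library was left out. That count depended on the limit: it was 30 at a mean of at least 0.1 FPKM and 21 at 1 FPKM. Over all genes tested, 0 were called by edgeR and 0 to 5 when a library was left out. The labels do not say whether the same numbers mark paired libraries, and correlations this small cannot decide it. Deviations of same-numbered libraries correlated at 0.052, 0.033 and 0.097, none over 0.1, and those of differently numbered libraries at -0.086 to 0.035. With the replicate block 3 genes were called, 0 of them HOX. At an edgeR unadjusted p under 0.05 the block gave 0 of the 24 HOX genes, where 462 of 13721 genes passed. Library totals in place of TMM gave 2, where 642 passed. Leaving out GIA library 1 gave 2, where 1407 passed, and leaving out DMSO library 1 or 2 gave 0, where 479 or 406 passed. For 15 of 24 HOX genes the direction held under every alternative. The other 9 changed sign when a library was left out: HOXA5 (log2 fold change -0.13 to 0.25), HOXA7 (-0.018 to 0.18), HOXA11 (-0.035 to 0.079), HOXA13 (-0.060 to 0.051), HOXB2 (-0.029 to 0.085), HOXC6 (-0.013 to 0.24), HOXC9 (-0.14 to 0.011), HOXC13 (-0.034 to 0.076) and HOXD9 (-0.14 to 0.036). So did HOTTIP (-0.094 to 0.064), HOXB-AS1 (-0.21 to 0.13), HOXC-AS1 (-0.10 to 0.17), HOXC-AS3 (-0.37 to 0.013) and HOXC13-AS (-0.25 to 0.0017). The cause was not tested. HOXB-AS3 lay between -1.58 and -0.86 and HOTAIR between 0.28 and 0.53 when a library was left out. On limma's log2 (FPKM + 0.5) and log2 (FPKM + 1) scales HOXB-AS3 was -0.64 and -0.44, and HOTAIR 0.32 and 0.26. With 3 libraries per group an exact permutation test of a single gene cannot go below p = 0.1.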
